A study of Mus musculus with 6 samples.

Results

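The Polycomb group genes examined here were Ezh1, Ezh2, Eed, Suz12, Jarid2, Bmi1, Ring1, Rnf2, Cbx7 and Pcgf1, 10 of the 22028 protein-coding genes in the mouse annotation (GENCODE M21 on mm10). They encode core and accessory subunits of the Polycomb complexes. The rule that named them used no ChIP-seq value, although earlier results of these data were known when they were chosen. Each gene was followed through every CDK6 peak that overlapped its promoter, a window of 2000 bp before and 200 bp after any of its transcript starts, or the rest of its gene body. All 10 genes carried a promoter region occupied by both forms of CDK6, beside 41.3% of all protein-coding genes. The 10 promoters are all rich in CpG, and no such share was computed for CpG-rich genes alone. The count fell to 6 when only peaks with a −log10 q of at least 5 were kept and to 3 at 10 or more. The share over all genes was not computed at these stricter limits.

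CDK6 occupancy was measured by ChIP-seq with an antibody against the HA tag in mouse pre/pro-B cell lines that were transformed by BCR-ABL(p185) and carried a Cdk6-/- deletion. Into these cells an HA-tagged wildtype CDK6 (CDK6-WT, 2 libraries) or an HA-tagged kinase-inactive mutant (CDK6-K43M, 2 libraries) had been introduced. Both groups thus share the oncogene, the missing endogenous Cdk6 and a tagged protein delivered by transduction. The labels do not say whether the replicates of a variant came from separate cell lines, so the spread between them may be technical.

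Polycomb group proteins keep genes silent through 2 kinds of complexes. Polycomb repressive complex 2 (PRC2) methylates histone H3 at lysine 27 with EZH2 or its paralogue EZH1 as the catalytic subunit, for which EED and SUZ12 are obligate partners and JARID2 an accessory subunit that aids recruitment. Polycomb repressive complex 1 (PRC1) ubiquitinates histone H2A with RNF2 (also called RING1B) or RING1 as the E3 ligase, which pairs with a PCGF protein such as BMI1 or PCGF1, and in canonical PRC1 a chromobox protein such as CBX7 reads the mark left by PRC2. In B-cell development EZH2 is needed for early progenitors, and BMI1 is known for its part in the self-renewal of blood stem cells.

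The DNA under the CDK6 summits (the point of highest enrichment within a peak) of 6 genes is given first because the results below refer to it. It was read from GRCm38 (mm10) 5′ to 3′ on the strand of the gene. Suz12, Ezh1, Ring1 and Cbx7 are shown with 101 bases centred on their strongest promoter summit, Suz12 as the gene with the highest mean percentile (defined below) and the other 3 as genes that lacked a promoter peak in a replicate 2 list. Bmi1 also lacked one and is not shown. For Jarid2 and Pcgf1, 29 bases around the motif nearest to the summit are shown. Capitals mark matches to the letter patterns described with the motif results.
Suz12 (chr11:79992862-79992962, plus strand): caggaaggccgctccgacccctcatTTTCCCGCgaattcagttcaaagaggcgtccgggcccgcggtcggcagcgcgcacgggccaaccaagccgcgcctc
Ezh1 (chr11:101226465-101226565, minus strand): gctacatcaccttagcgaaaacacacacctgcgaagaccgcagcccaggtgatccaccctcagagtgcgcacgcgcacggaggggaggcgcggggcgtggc
Ring1 (chr17:34024788-34024888, minus strand): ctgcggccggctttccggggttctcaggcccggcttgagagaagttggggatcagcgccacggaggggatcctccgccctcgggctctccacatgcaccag
Cbx7 (chr15:79932654-79932754, minus strand): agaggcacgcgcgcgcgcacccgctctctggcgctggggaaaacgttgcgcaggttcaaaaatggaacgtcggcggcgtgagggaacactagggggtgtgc
Jarid2 (chr13:44731275-44731303, plus strand): agcctctctctcATTGGttaaggggcttg
Pcgf1 (chr6:83078666-83078694, plus strand): gcgtctggtcTCCCGAGGGAaaaaagaga

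The 4 peak lists held between 34729 and 39797 peaks. The number of extended reads over a summit was recovered from each peak's fold enrichment and p-value, with medians of 15 to 23 reads per list and 7 to 9 reads at the weakest peaks. As a check of the cell type, the promoters of 10 B-lineage marker genes had peaks in 8, 10, 8 and 10 cases in CDK6-WT replicates 1 and 2 and CDK6-K43M replicates 1 and 2. None of 13 T-lineage, myeloid, erythroid and liver markers had a promoter peak in any list, which allows a share of up to 22.8% (upper 95% Wilson bound). A peak shows occupancy and not expression. The lists resembled each other by replicate number rather than by variant, and each result is therefore also given per replicate number.

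CDK6 occupied the promoters of all 10 Polycomb genes in the replicate 1 list of both variants and of 8 of them in each replicate 2 list. The genes without one were Ezh1 and Bmi1 in CDK6-WT replicate 2 and Ring1 and Cbx7 in CDK6-K43M replicate 2. Among all protein-coding genes a promoter peak was called for 47.0% in CDK6-WT replicate 1, 40.1% in CDK6-WT replicate 2, 48.5% in CDK6-K43M replicate 1 and 39.4% in CDK6-K43M replicate 2. Ezh2, Eed, Suz12, Jarid2, Rnf2 and Pcgf1 had a promoter peak in all 4 lists, 6 of the 10 (60%, 95% Wilson interval 31.3% to 83.2%), against 33.2% of all protein-coding genes. The 10 promoters are all rich in CpG, with observed to expected ratios of 0.894 to 1.19. Of the 12421 protein-coding genes with a ratio of at least 0.6, 52.6% had a promoter peak in all 4 lists, which lies inside the interval for the Polycomb genes.

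**Figure D1:**
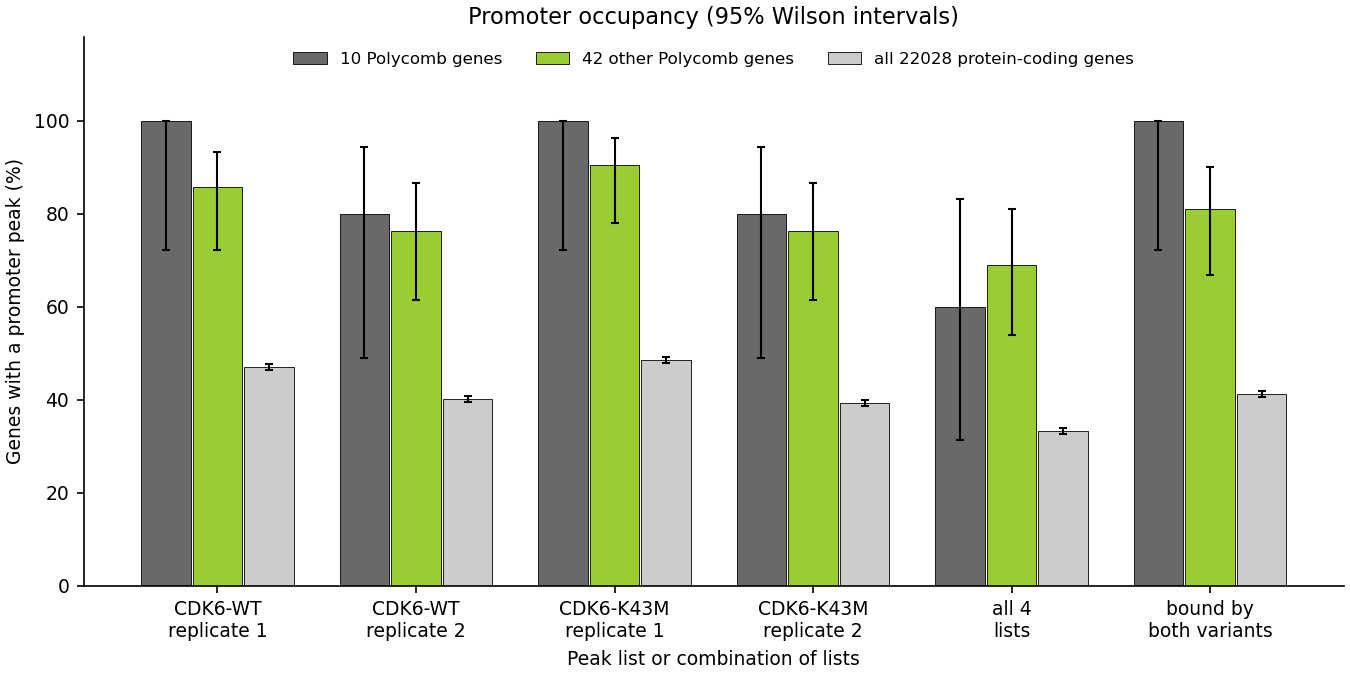
Share of genes (%) with a CDK6 promoter peak in each list, in all 4 lists, or with a region bound by both variants (a peak in at least 3 of the 4 lists), for the 10 Polycomb genes, 42 other Polycomb genes and all 22028 protein-coding genes; bars carry 95% Wilson intervals. The bars of the 10 Polycomb genes stand at 100% in both replicate 1 lists and at 80% in both replicate 2 lists.

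The definition of shared and unique sites followed that of the study. A promoter region was called bound by both variants where at least 3 of the 4 lists had a peak in it. By that rule 10 of 10 Polycomb genes had such a region, and the 3 that kept one at a −log10 q of at least 10 were Ezh2, Eed and Suz12. None had a promoter region unique to a variant, that is, present in both lists of that variant and in neither list of the other, and the background was also low at 0.935%. With 10 genes a count of 0 allows a share of up to 27.8% for each variant (upper 95% Wilson bound).

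Peaks were ranked by the percentile of their −log10 q-value within their own list, where 100 is the strongest peak. The percentile depends on how many weaker peaks a list holds, so a difference between lists is one of rank and is read beside the same difference over all genes. Where values are given by variant, replicate 1 comes first. In each list the highest promoter peak of each gene was taken. The median over all protein-coding genes with a promoter peak was 78.9 and 59.6 in CDK6-WT replicates 1 and 2 and 80.4 and 58.4 in CDK6-K43M replicates 1 and 2. The median of the Polycomb genes with a promoter peak was 73.9, 60.6, 86.2 and 53.0 in the same order.

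**Figure D2:**
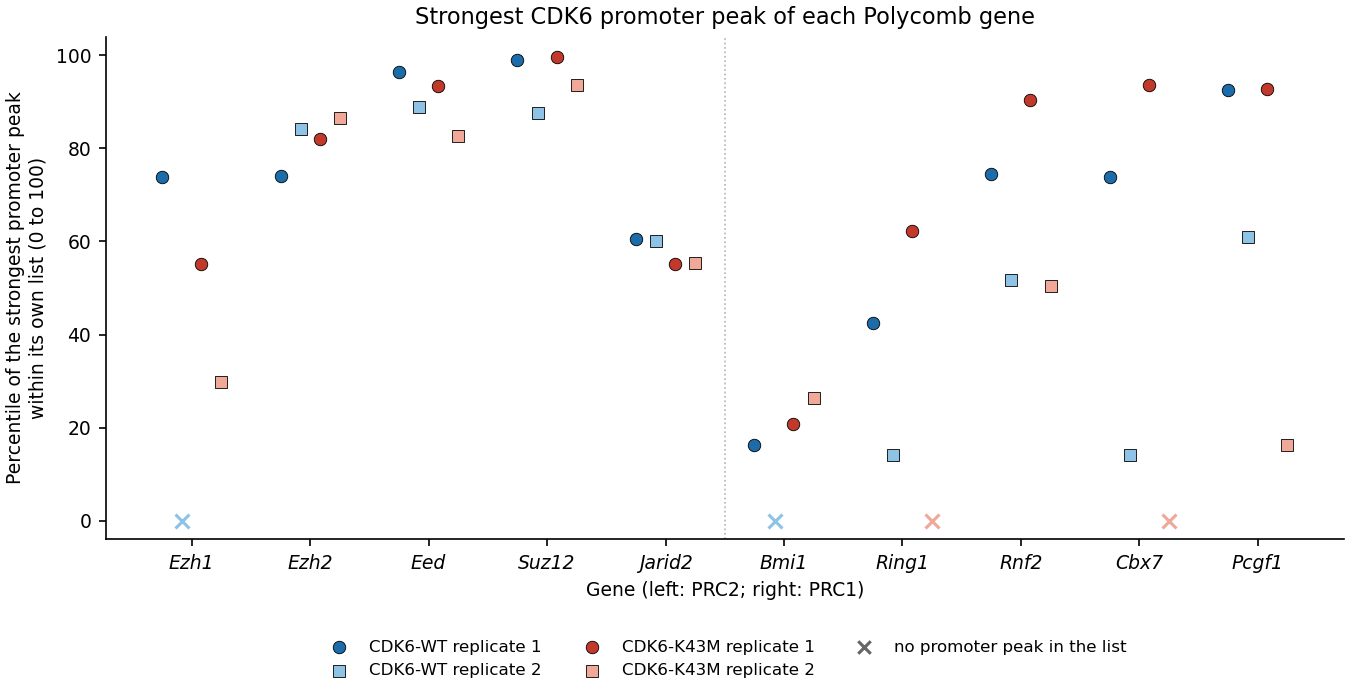
Percentile within its list (0 to 100, vertical axis) of the strongest promoter peak of each Polycomb gene in the 4 lists; circles are replicate 1, squares replicate 2, blue CDK6-WT, red CDK6-K43M, and a cross at 0 marks a list with no promoter peak. Suz12 and Eed stay above 80 in every list, although they too are lower in the replicate 2 list of both variants. Cbx7, Ring1 and Pcgf1 fall further there or are missing.

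Among the PRC2 subunits the scaffold Suz12 (chr11:79993106-80034123, plus strand) had the highest promoter peak in every list except CDK6-WT replicate 2, where Eed stood above it. Its strongest peak stood at percentiles of 99.0 and 87.6 in CDK6-WT replicates 1 and 2 and 99.7 and 93.6 in CDK6-K43M replicates 1 and 2. The summits rested on 56, 28, 80 and 31 reads in that order. They lay 268, 248, 194 and 213 bp upstream of the nearest transcript start, within 74 bp of each other. The strongest of them is the centre of the sequence shown above, and among the protein-coding genes with a promoter peak in CDK6-K43M replicate 1, 98.8% had a weaker one.

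Eed (chr7:89954654-89980983, minus strand), the PRC2 subunit that binds methylated histone H3, was the second gene above a percentile of 80 throughout. Its values were 96.4 and 88.8 with CDK6-WT and 93.4 and 82.7 with CDK6-K43M. The summits lay 85, 9, 2 and 44 bp upstream of the nearest start, which belongs to a retained-intron transcript. From the first protein-coding start, the summits lay 339, 415, 422 and 380 bp inside the gene. The same region also covers a transcript start of E230029C05Rik, so the peak cannot be assigned to Eed alone.

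Of the 2 catalytic genes of PRC2, 1 was found in every list and the other was not. Ezh2 (chr6:47530139-47595341, minus strand) had a promoter peak in all 4 lists, at percentiles of 74.0 and 84.1 with CDK6-WT and 82.0 and 86.6 with CDK6-K43M. It was the only one of the 10 genes whose percentile was higher in the replicate 2 list for both variants. The same held in 11.8% of the protein-coding genes with a promoter peak in all 4 lists and 5.80% of all protein-coding genes. The Ezh2 summits lay between 74 bp upstream and 67 bp downstream of the nearest start and rested on 26 to 38 reads. Ezh1 (chr11:101191115-101226463, minus strand), which encodes the paralogue with the weaker methyltransferase activity, had promoter peaks at percentiles of 73.8 in CDK6-WT replicate 1, 55.2 in CDK6-K43M replicate 1 and 29.7 in CDK6-K43M replicate 2, and none in CDK6-WT replicate 2.

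The Ezh1 peaks did not all mark the same place. At the main promoter, from which its protein-coding transcripts start, the summits of CDK6-WT replicate 1, CDK6-K43M replicate 1 and CDK6-K43M replicate 2 lay 52, 4 and 39 bp upstream of the nearest start, on 25, 22 and 10 reads. The peak of CDK6-K43M replicate 2 stood there at a percentile of only 16.2. Its higher value of 29.7 came from a second region 25.2 kb inside the gene, next to the start of a noncoding transcript, where CDK6-WT replicate 1 also had a peak at a percentile of 38.0.

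Jarid2 (chr13:44729474-44921643, plus strand), the longest of the genes at 192170 bp, had promoter peaks in all 4 lists that were mid-range among all peaks. Of the protein-coding genes with a promoter peak, 25.7% in CDK6-WT replicate 1 and 18.1% in CDK6-K43M replicate 1 had a weaker one. In the replicate 2 lists these shares were 50.7% with CDK6-WT and 44.0% with CDK6-K43M. The Jarid2 percentiles were 60.6 and 60.2 with CDK6-WT and 55.2 and 55.4 with CDK6-K43M, the narrowest spread among the 10 genes. These values came from 3 neighbouring regions rather than from the same one. The region with the 29 bases shown above held the strongest peak of CDK6-WT replicate 1, whereas the strongest peak of CDK6-K43M replicate 2 lay in a region present in the replicate 2 lists only. Within the outermost of these regions, the percentiles were 9.68 and 60.2 with CDK6-WT and 55.2 and 14.1 with CDK6-K43M, so that the lists were less alike there than their maxima.

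The PRC1 ligase Rnf2 (chr1:151458004-151500955, minus strand) had a promoter peak in all 4 lists. Its percentiles were 74.4 and 51.7 with CDK6-WT and 90.3 and 50.5 with CDK6-K43M. Both replicate 1 values were above both replicate 2 values. The summits lay 20, 67 and 56 bp upstream of a start in CDK6-WT replicate 1, CDK6-WT replicate 2 and CDK6-K43M replicate 2 and 27 bp downstream in CDK6-K43M replicate 1. Its paralogue Ring1 (chr17:34020792-34024680, minus strand) had lower peaks, at percentiles of 42.5 and 14.2 with CDK6-WT and 62.2 in CDK6-K43M replicate 1, and none in CDK6-K43M replicate 2.

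Ring1 also carried a second promoter region, present in both replicate 1 lists only, with summits 359 bp (CDK6-WT) and 444 bp (CDK6-K43M) upstream of the start. That region holds the starts of Gm26940, Mir219a-1 and Mir219c, so it is not specific to Ring1. Its percentiles were 26.4 and 4.26, the second of which lies near the lower end of the list.

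Both PCGF genes were occupied, but at different heights. Pcgf1 (chr6:83077869-83080855, plus strand), a subunit of noncanonical PRC1, had percentiles of 92.6 and 61.1 with CDK6-WT and 92.8 and 16.2 with CDK6-K43M. Its replicate 1 values were among the highest and nearly equal between the variants, and the value of 16.2 in CDK6-K43M replicate 2 rested on 10 reads. The summits lay within 143 bp of each other, next to the Pcgf1 sequence shown above. Bmi1 (chr2:18677018-18686629, plus strand), the PCGF subunit of canonical PRC1, had the weakest promoter peaks of the 10 genes in both replicate 1 lists.

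The Bmi1 percentiles were 16.3 in CDK6-WT replicate 1, 20.8 in CDK6-K43M replicate 1 and 26.4 in CDK6-K43M replicate 2, with no promoter peak in CDK6-WT replicate 2. The peaks rested on 12, 14 and 11 reads against a local background of 1.54 to 1.90 reads. At a minimum −log10 q of 5 none of them remained.

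Cbx7 (chr15:79915807-79971119, minus strand), the chromobox subunit, showed the clearest split by replicate number. Its strongest promoter peak had percentiles of 73.8 in CDK6-WT replicate 1 and 93.7 in CDK6-K43M replicate 1, on 25 and 47 reads. In CDK6-WT replicate 2 the only promoter peak stood at 14.2 on 11 reads, and CDK6-K43M replicate 2 had none. The 2 strongest promoter regions, which lie over a group of 7 starts 37220 to 38603 bp inside the gene, were found in both replicate 1 lists but were missing from both replicate 2 lists. The region that made Cbx7 count as bound by both variants is another, weaker one, 878 to 1158 bp upstream of those starts. The 2 transcripts that begin at the outer end of the gene had no promoter peak in any list.

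**Figure D3:**
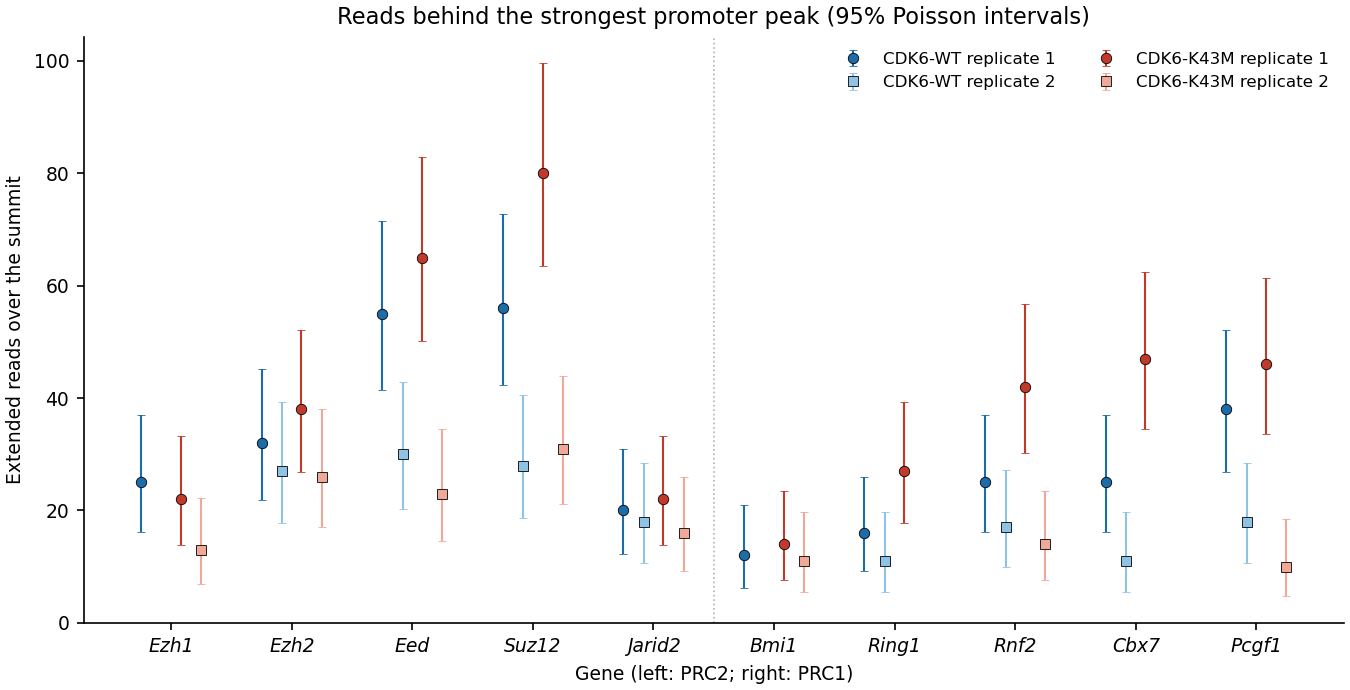
Extended reads over the summit of the strongest promoter peak (vertical axis) of each Polycomb gene in each list, with exact 95% Poisson intervals for counting error only; circles are replicate 1 and squares replicate 2. Read numbers are not scaled for depth, so they are compared between genes within a list, and Suz12 and Eed stand highest in both replicate 1 lists while Bmi1 stands lowest in both replicate 1 lists.

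Over the 36 strongest promoter peaks of the 10 genes, the read number ranged from 10 to 80. The median was 25 reads in CDK6-WT replicate 1, 18 in CDK6-WT replicate 2, 40 in CDK6-K43M replicate 1 and 15 in CDK6-K43M replicate 2. The exact 95% Poisson interval was 63.4 to 99.6 reads for the highest count (Suz12 in CDK6-K43M replicate 1) and 4.80 to 18.4 for the lowest (Pcgf1 in CDK6-K43M replicate 2). Reads without molecular identifiers are not independent molecules, and the intervals cover counting error only. A promoter that is missing from a list was not detected at this depth, which does not show that CDK6 was absent from it.

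Most summits lay close to a transcript start. Of the 36 strongest promoter peaks, 25 had their summit within 100 bp and 34 within 300 bp of the nearest start of the gene, with a median distance of 52 bp. The summit lay upstream of that start in 24 and downstream in 12. Any annotated start counts here, and the 24 include the Eed summits, which lay inside the gene from its first start. The farthest, at 878 bp, was the Cbx7 peak of CDK6-WT replicate 2. Each peak was taken because it overlapped a promoter window around an annotated start, so a short distance is partly built in. The same distances are not given here for all protein-coding genes. Whether the Polycomb summits lay closer to a start than those of other genes was therefore not tested. Across the lists the strongest summits of Eed, Suz12, Rnf2, Ezh2, Ring1, Pcgf1 and Bmi1 spanned 74 to 171 bp, whereas those of Jarid2, Cbx7 and Ezh1 spanned 1407, 2073 and 25249 bp because different regions were strongest in different lists. The median span over the 7312 protein-coding genes with a promoter peak in all 4 lists was 130 bp.

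**Figure D4:**
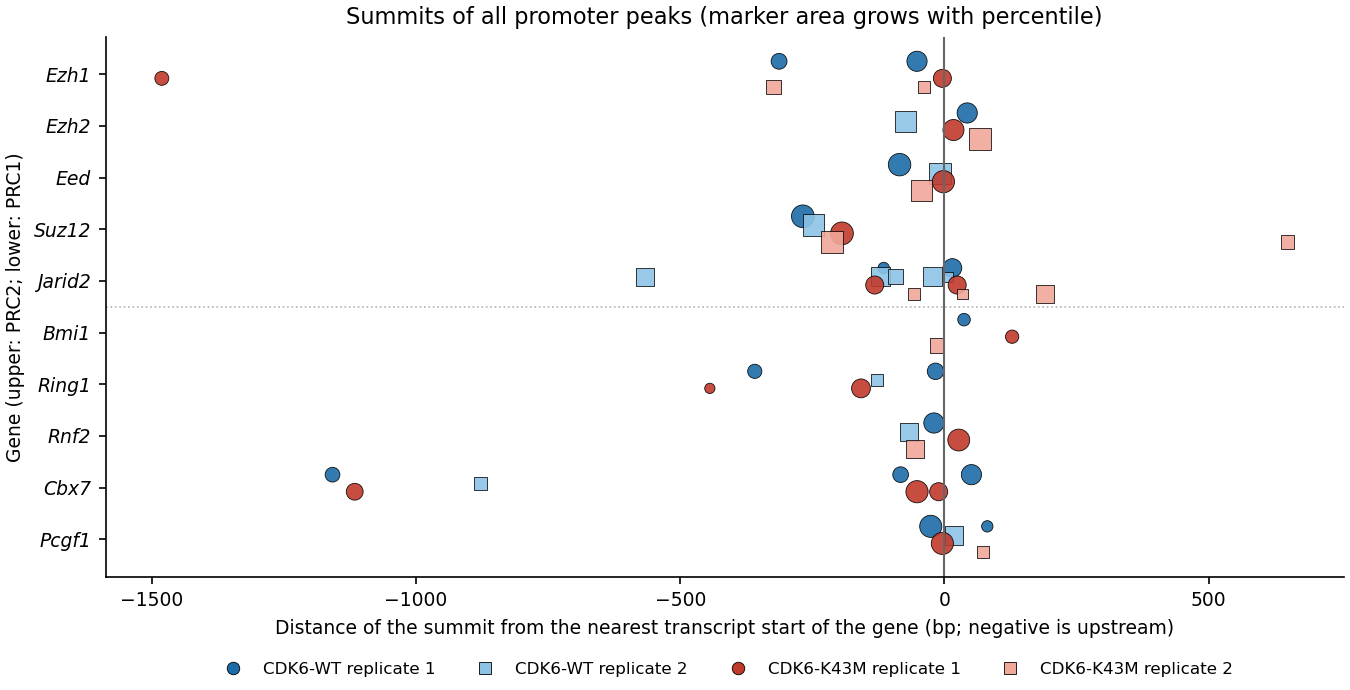
Distance (bp, horizontal axis; negative is upstream) from the summit of every promoter peak of the 10 genes to the nearest transcript start of the same gene; circles are replicate 1, squares replicate 2, blue CDK6-WT, red CDK6-K43M, and larger markers have a higher percentile. The strongest Suz12 summits sit 194 to 268 bp upstream of the start in all 4 lists, and the large markers of most other genes lie within 100 bp of a start.

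The comparison of CDK6-K43M with CDK6-WT asks whether occupancy depends on kinase activity. The number of Polycomb genes with a promoter peak was 9 ± 1.41 per list with CDK6-WT and 9 ± 1.41 with CDK6-K43M (mean ± SD, n = 2 each). The difference was 0 within replicate 1 and 0 within replicate 2. For single genes the percentile was compared with an exact two-sided permutation test over the 6 assignments of the 4 libraries, with a missing peak set to 0. This design cannot give a p below 0.33, so no gene could pass a threshold of 0.05.

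The mean percentile was higher with CDK6-K43M for 7 genes and higher with CDK6-WT for 3. Leaving out a single library turned the direction for 7 of the 10, all except Ezh2, Jarid2 and Bmi1. The median difference over the 10 genes was 3.12 percentile points, with a missing peak set to 0 for Ezh1, Bmi1, Ring1 and Cbx7. Over the 7312 protein-coding genes with a promoter peak in all 4 lists it was 0.546, so these medians cover unlike sets. Of the Polycomb genes with a peak in all 4 lists, Ezh2, Suz12 and Rnf2 had a positive difference and Eed, Jarid2 and Pcgf1 a negative one. In 3 genes, Ezh2, Suz12 and Bmi1, CDK6-K43M was higher within both replicate numbers, and in 2, Eed and Jarid2, CDK6-WT was. Among the 9102 protein-coding genes with a promoter peak in at least 3 lists the shares were 29.0% and 21.7%. Only Bmi1 and Jarid2 had groups that did not overlap, 2 of 10 beside 9.95% of those 9102 genes.

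For Bmi1 the difference, CDK6-K43M minus CDK6-WT, was 15.5 percentile points (23.6 ± 3.91 against 8.13 ± 11.5, SD, n = 2 each, exact permutation p = 0.33), with CDK6-WT replicate 2 set to 0. For Jarid2 it was -5.08 points (55.3 ± 0.108 against 60.4 ± 0.317, SD, n = 2 each, exact permutation p = 0.33). The Jarid2 values come from different regions in different lists, as given above, so the small SDs do not describe a single site. Pcgf1 had the widest difference, -22.3 points, but the CDK6-K43M libraries alone spread by 54.2 points (SD, n = 2) and the exact permutation p was 1. Ezh2 (5.28 points), Suz12 (3.36 points) and Eed (-4.59 points) each had an exact permutation p of 0.67, and Ezh1, Ring1, Rnf2 and Cbx7 had an exact permutation p of 1.

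The lists differed more by replicate number than by variant at these genes. The percentile was higher in the replicate 1 list for both variants in 7 of the 10 genes, all except Ezh2, Jarid2 and Bmi1, and the median difference between replicate 1 and replicate 2 was 20.2 points. The same direction held in 75.1% of the protein-coding genes with a promoter peak in at least 3 lists. The median difference over those with one in all 4 lists was 20.8 points. These medians cover unlike sets, since a missing peak was set to 0 for Ezh1, Bmi1, Ring1 and Cbx7. Among the Polycomb genes with a peak in all 4 lists, Pcgf1 and Rnf2 lay above 20.8 points and Ezh2, Eed, Suz12 and Jarid2 below. The largest differences were 76.6 points for Cbx7, 54.1 for Pcgf1, 49.6 for Ezh1 and 45.3 for Ring1. Of these, only that of Pcgf1 holds no value set to 0. The smallest were 0.148 points for Jarid2, 5.37 for Bmi1 and -7.38 for Ezh2.

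The split also showed in the presence of regions. Cbx7 and Ring1 had a promoter region in both replicate 1 lists only, 2 of 10 genes beside 10.4% of all protein-coding genes, and Jarid2 had one in both replicate 2 lists only, 1 of 10 beside 2.88%. Rag1 and Dntt, which are B-lineage markers, had promoter peaks in the replicate 2 lists only. The labels do not state what the replicate numbers mark, and the cause of this split was not tested.

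**Figure D5:**
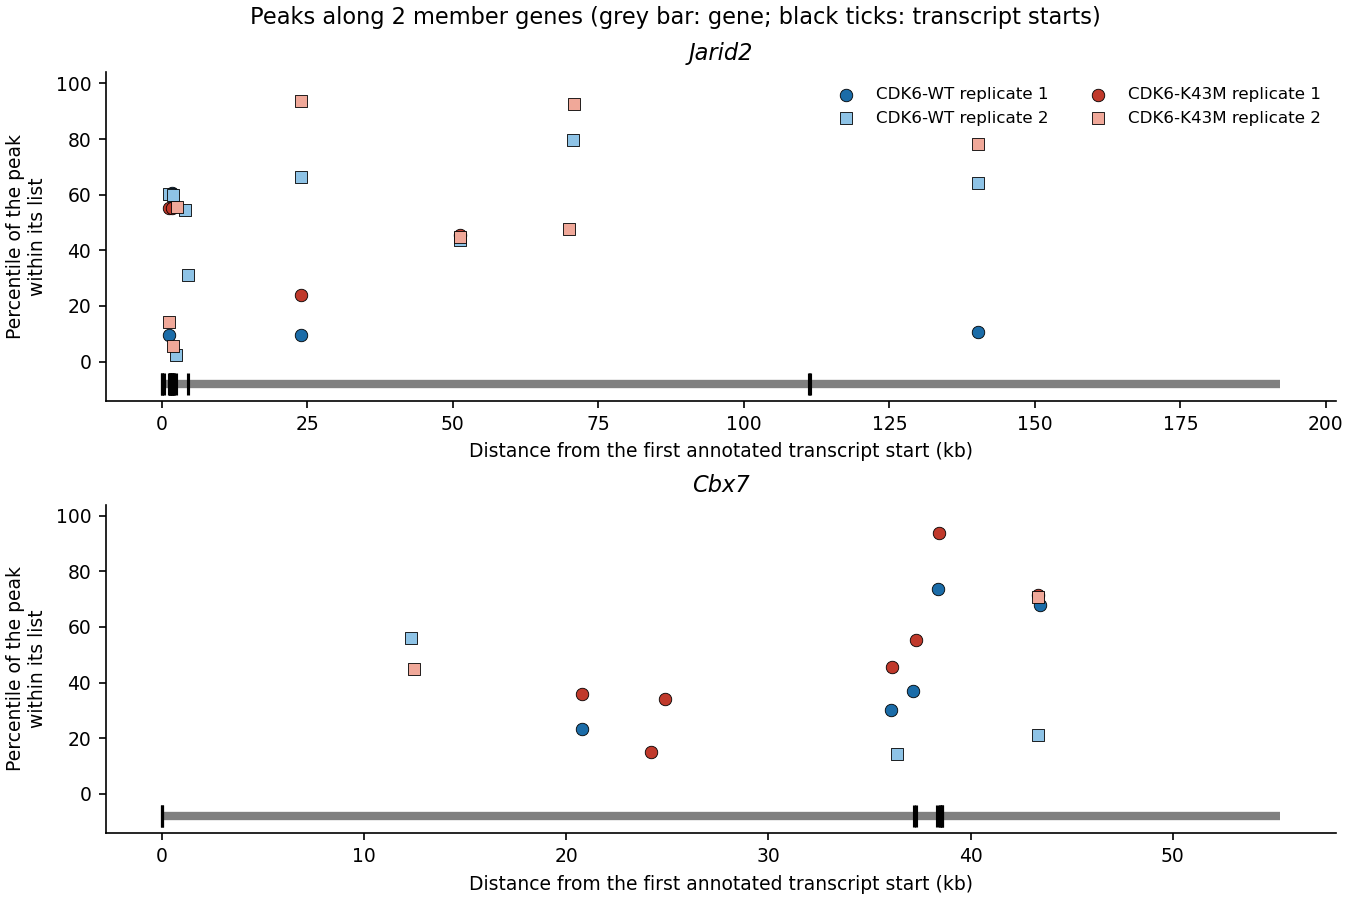
Percentile within its list (vertical axis) of every peak along Jarid2 (upper) and Cbx7 (lower) against the distance from the first annotated transcript start (kb, horizontal axis); the grey bar is the gene and black ticks are transcript starts. Jarid2 has intronic peaks at 24.0, 70.6 to 70.8 and 140 kb that are higher in the replicate 2 lists and 1 at 51.2 kb that is not, and Cbx7 has its replicate 1 peaks over the inner group of starts near 38 kb.

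Outside the promoters, 14 further regions lay in the bodies of 4 genes: Jarid2 and Cbx7 with 5 each, Ezh2 with 3 and Rnf2 with 1. Ezh2, Jarid2 and Cbx7 each had 1 gene body region with a peak in all 4 lists, 3 of the 10 genes beside 13.1% of all protein-coding genes. Among the 7312 genes with a promoter peak in all 4 lists the share was 22.9%. Jarid2, Ezh2 and Cbx7 are also the longest of the 10 genes, and these shares are not matched for length. None of the 3 regions kept a peak in all 4 lists at a −log10 q of at least 5. Without CDK6-WT replicate 1 there were 5 gene body regions with a peak in all remaining lists. All summits in these regions lay in introns.

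Of the 5 intronic regions of Jarid2, 3 had higher percentiles in the replicate 2 lists or were found in those alone. Of all merged regions outside promoters of protein-coding genes, 13.8% were in both replicate 2 lists only and 12.4% in both replicate 1 lists only. At promoters these shares were 4.28% and 14.4%. How often the percentile was higher in the replicate 2 lists was not counted over all such regions. The region at chr13:44753124-44753753, 24.0 kb from the first start, had percentiles of 9.68 and 66.4 in CDK6-WT replicates 1 and 2 and 24.0 and 93.5 in CDK6-K43M replicates 1 and 2. The region at chr13:44799588-44800624, about 70.6 kb from the first start, was found in the replicate 2 lists only, at percentiles of 79.6 (CDK6-WT) and 92.5 (CDK6-K43M). A region at chr13:44869462-44869787 had percentiles of 10.7 in CDK6-WT replicate 1, 64.2 in CDK6-WT replicate 2 and 78.1 in CDK6-K43M replicate 2. The region 51.2 kb from the first start did not follow this order, at 43.9 in CDK6-WT replicate 2, 45.4 in CDK6-K43M replicate 1 and 44.9 in CDK6-K43M replicate 2, and the remaining region was found in CDK6-K43M replicate 2 alone, at 47.8. In CDK6-K43M replicate 2 the first 3 stood above every promoter peak of Jarid2. Ranked by fold enrichment, the region at chr13:44869462-44869787 did not, at 28.0 in that list against 54.1 for the highest promoter peak. Its local background there was 7.93 reads, against 1.98 at that promoter peak. Chromosome 13 as a whole held 3.23% and 3.46% of the peaks in the replicate 1 lists and 4.53% and 4.40% in the replicate 2 lists, and the part of this in the Jarid2 peaks was not tested.

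The Ezh2 gene body region at chr6:47593607-47594496 lies about 1 kb inside the gene, in the intron next to the promoter region. Its percentiles were 20.5 and 72.6 with CDK6-WT and 48.7 and 29.1 with CDK6-K43M, so neither the variants nor the replicate numbers separated. The Cbx7 region at chr15:79927553-79928077, 43.3 to 43.4 kb from the first start, had percentiles of 67.9 and 21.3 with CDK6-WT and 71.4 and 70.9 with CDK6-K43M. It was thus present in CDK6-K43M replicate 2, the list in which Cbx7 had no promoter peak.

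Short DNA patterns were searched on both strands in the 201 bp around the strongest promoter summit of each gene. They were the ETS pattern CCGGAAGT, the NRF-1 core GCATGCGC, the SP1 pattern GGGGCGGGG, the NFY pattern CCAAT, the E2F patterns TTTCCCGC and TTTGGCGC, the CREB/ATF pattern TGACGTCA, the YY1 pattern AAGATGGC, the EBF pattern TCCCNNGGG, the RUNX pattern TGTGGTT and the GFY core CTACAATTC. None of these patterns contains another, although sites may overlap in the sequence. A match is a description of the letters, not evidence of binding by the factor.

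Matches were found at 3 of the 10 genes. Suz12 held an E2F pattern with its centre 21.5 bp from the summit, a pattern present at 2.81% of the 6435 distinct strongest summits of genes with a promoter peak in all 4 lists and in 1.27% of 54320 windows of the same length around protein-coding transcript starts. Jarid2 held an NFY pattern on the opposite strand (ATTGG) 13 bp from the summit, beside 22.8% of those summits and 24.6% of the windows. Pcgf1 held an EBF pattern whose letters match on both strands, so that 2 overlapping matches make up the 10 capitals shown above, with centres 7 and 6 bp from the summit, beside 7.52% and 4.96%. The other 7 genes held none of the patterns. Only the exact letters were searched, so a site that differs by a letter was not counted. For example, the Ezh1 and Cbx7 sequences shown above hold GCACGCGC, which differs from the NRF-1 core by a letter. The ETS pattern, present at 8.83% of summits (3.82% of windows), the NRF-1 core, at 5.91% (2.21%), the SP1 pattern, at 12.8% (10.3%), YY1, at 4.32% (2.84%), RUNX, at 3.59% (2.91%), CREB/ATF, at 2.66% (1.59%), and the GFY core, at 0.808% (0.267%), had no match at any of the 10.

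A further list of 42 Polycomb genes gave the wider setting. In all, 29 of them (69.0%, 95% Wilson interval 54.0% to 80.9%) had a promoter peak in all 4 lists, an interval that holds the share of 6 in 10 above. The share was 33.2% over all protein-coding genes and 52.6% over those with a CpG ratio of at least 0.6. The CpG ratios of the 42 genes are not given here, so neither share is matched to them. By role the 29 were 6 of 8 PRC2 accessory genes, 15 of 22 further PRC1 genes, 8 of 10 genes of the PR-DUB deubiquitinase complex and its partners, and neither of the 2 genes for demethylases that remove the PRC2 mark, Kdm6a and Kdm6b. Per list 36, 32, 38 and 32 of the 42 had a promoter peak, again with the replicate 2 lists below the replicate 1 lists. Over all protein-coding genes the shares were 47.0%, 40.1%, 48.5% and 39.4% in the same order.

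The 5 further genes with the highest mean percentile over the 4 lists were Asxl2 (91.2), the PRC2 accessory gene Mtf2 (90.6), the deubiquitinase gene Bap1 (90.4), Aebp2 (87.9) and Asxl1 (85.5). The mean of Eed, 90.3, fell in this range, and that of Suz12 lay above all 5. Scml2, Auts2 and Asxl3 had no promoter peak in any list. Of the 42, only the corepressor gene Bcor had a promoter region unique to a variant, beside 0.935% of all protein-coding genes. Bcor had this region in both CDK6-K43M lists and also had another promoter region bound by both variants. Its strongest promoter peaks stood at percentiles of 16.3 in CDK6-WT replicate 1, 56.1 in CDK6-WT replicate 2, 40.7 in CDK6-K43M replicate 1 and 81.3 in CDK6-K43M replicate 2.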

How the data were processed

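The titles gave the variant and replicate number of each ChIP-seq library. Per the submitters' processing notes, the tools were FastQC 0.11.5, Trimmomatic 0.36, BWA 0.7.15, SAMtools 1.3.1, bedtools and MACS2 2.1.0, with the mm10 build. Peaks were called per library by the authors. The deposited lists give each peak's fold enrichment (a ratio), −log10 p-value and −log10 q-value, a score derived from the −log10 q-value, and other information (where the summit lies in the peak). They hold no read totals, so depth is not stated in them. The 2 input libraries were not analysed here.

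Peaks were intersected (at least 1 bp) with promoter windows and gene bodies of GENCODE M21, and merged over the lists into regions. A percentile is the rank of −log10 q within a list. Reads over each summit were solved from fold and −log10 p. In every list 100% of peaks came out as whole reads within 0.005. CpG ratios were computed from 250 bp before to 50 bp after each start. Read recovery, region classes and promoter overlap were tested on simulated data. Single genes were compared by exact permutation tests. The named genes were the 10 members and, of 42 other Polycomb genes, those with no promoter peak, those with a variant-unique region and the 5 with the highest mean percentile. Members and lists were chosen with earlier results of these data known. The CpG-rich background was added after the data were seen. The alternatives required a −log10 q of at least 5 or 10, or took the top 10000 peaks per list, promoters of 500 bp to either side, summits instead of peaks, protein-coding transcripts alone, ranking by fold, the replicate block and leaving out each library. Scripts ran in Python 3.11.15 with pysam 0.24.0, scipy 1.17.1 and pandas 2.3.3.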

Additional observations from a re-analysis of the deposited data

How the results depend on the processing

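The counts of occupied genes depended on the peak threshold. Polycomb genes with a promoter peak in all 4 lists fell from 6 to 3 (Ezh2, Eed and Suz12) when −log10 q had to reach 10 or only the top 10000 peaks per list were kept. Genes with a region bound by both variants fell from 10 to 6 at a −log10 q of 5 and to 3 under the other 2 settings. With promoters of 500 bp to either side, 9 genes had such a region. Other Polycomb genes in all 4 lists fell from 29 to 18, 7 and 6 and the gene body regions from 3 to 0, with fewer peaks by construction. Gene body regions in every list rose to 5 without CDK6-WT replicate 1 and ranged from 3 to 5 over the left-out libraries.

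The difference between variants in the number of occupied genes was 0 with the replicate block and ranged from -1 to 1 over the left-out libraries. The replicate block left every percentile difference as it was, since both means hold the same numbers of libraries, and 2 pairs are too few to show whether the numbers pair the samples. Of 80 alternative percentile differences, 13 turned direction. The Ezh1 difference became -13.3 at a −log10 q of 5, and the Ring1 difference -1.03 when ranked by fold. Over the left-out libraries the difference ranged from -31.3 to 42.5 for Ezh1, -9.97 to 0.794 for Eed, -2.34 to 9.07 for Suz12, -28.3 to 33.9 for Ring1, -12.6 to 27.3 for Rnf2, -44.0 to 49.7 for Cbx7 and -60.6 to 16.0 for Pcgf1. The cause was not tested. Ezh2, Jarid2 and Bmi1 kept their direction, except that Bmi1 had no peak left at a −log10 q of 5. Read totals are not in the lists, so what depth limits is known only through the reads at each summit.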
